A study of Homo sapiens with 12 samples.

Results

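The genes described here carry the interferon signal from the cell surface to the nucleus. They comprise the receptor chains IFNAR1, IFNAR2 and IFNGR1, the kinases JAK1 and TYK2, the signal transducer STAT2 and the interferon regulatory factors IRF1, IRF7 and IRF9. They were chosen by name, as 9 of the 26475 gene rows of the table, and all 9 had enough counts to be tested in every comparison. RNA was sequenced from PA-1, an ovarian teratocarcinoma line grown in DMEM, and from SK-OV-3, an ovarian adenocarcinoma line grown in RPMI. Each line was treated for 48 h with 5 µM BAY-850, an inhibitor of the chromatin protein ATAD2, or was given the solvent DMSO, with 3 biological replicates in each of the 4 groups. Each tumour type was represented by 1 line, so line, medium and tumour type cannot be told apart.

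Type I interferons bind a receptor of IFNAR1 and IFNAR2, which hold the kinases TYK2 and JAK1. These kinases phosphorylate STAT proteins, among them STAT2, which joins IRF9 in the factor ISGF3 to switch on genes through the interferon-stimulated response element. Interferon gamma acts through IFNGR1, IFNGR2, JAK1 and JAK2 on STAT dimers that bind the gamma-activated site, and IRF1 and IRF7 are transcription factors whose own genes are known interferon targets.

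Library totals lay between 34544505 and 51840233 counts, and ribosomal RNA genes took 7.94 to 16.9% of them. SK-OV-3 BAY-850 replicate 3 stood apart, with the highest total and the fewest genes with a count, 15629 against 17425 to 18414 in the other libraries. Markers of embryonal carcinoma summed to 1372 to 1649 CPM (a gene's count set against the total of its library) in PA-1 and 6.38 to 10.6 CPM in SK-OV-3, although TDGF1, one of the 8, was near 0 in both lines. The epithelial list summed to 4354 to 4655 CPM under DMSO and 3206 to 3687 CPM with BAY-850 in SK-OV-3, where 4 of its 8 genes fell, KRT8, KRT19, EPCAM and ERBB2, and PAX8 rose. In PA-1 it summed to 926 to 1055 CPM, with KRT8 and KRT18 high, KRT7 near 0 and a rise in KRT19. Leukocyte markers summed to at most 1.24 CPM in any library. The 3 endothelial markers summed to 34.4 to 41.5 CPM in PA-1 and 2.73 to 4.25 CPM in SK-OV-3. The 3 fibroblast markers, nearly all COL1A1 with DCN near 0, summed to 425 to 533 CPM under DMSO and 564 to 613 CPM with BAY-850 in PA-1, where COL1A1 rose. In SK-OV-3 they summed to 168 to 179 CPM and 83.2 to 111 CPM in the same order, and LUM and COL1A1 fell. The part of these markers' changes in the results below was not tested. The marker sums and the levels below are TMM CPM, in which the library total behind each CPM is corrected by the trimmed mean of M values. The sign ± gives the SD over 3 libraries. A gene is said to rise or fall where edgeR's quasi-likelihood test gave an adjusted p under 0.05, with adjustment over all genes tested.

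The 9 genes were compared between BAY-850 and DMSO within each line, to see which parts of the pathway changed with the inhibitor. In SK-OV-3, 5 of the 9 genes rose, IRF7, IRF9, STAT2, IRF1 and IFNGR1, and none fell. In PA-1, IFNGR1 fell and no other gene of the 9 passed the test. At an unadjusted p under 0.05 the counts were 5 higher and 0 lower in SK-OV-3, and 0 higher and 2 lower in PA-1, where IFNAR1 was the second. Across all genes tested, 10.8% rose and 9.56% fell in SK-OV-3, while 4.65% rose and 2.48% fell in PA-1. The 3 libraries of each treatment did not overlap for 5 of the 9 genes in SK-OV-3 and for 2 of the 9 in PA-1, beside 38.6% and 27.5% of all genes tested. The median log2 fold change of the 9 genes was 0.34 in SK-OV-3 and -0.02 in PA-1, with medians of -0.01 and near 0 over all genes. In bulk RNA, a change in the number of cells that carry a transcript and a change per cell cannot be told apart.

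**Figure D1:**
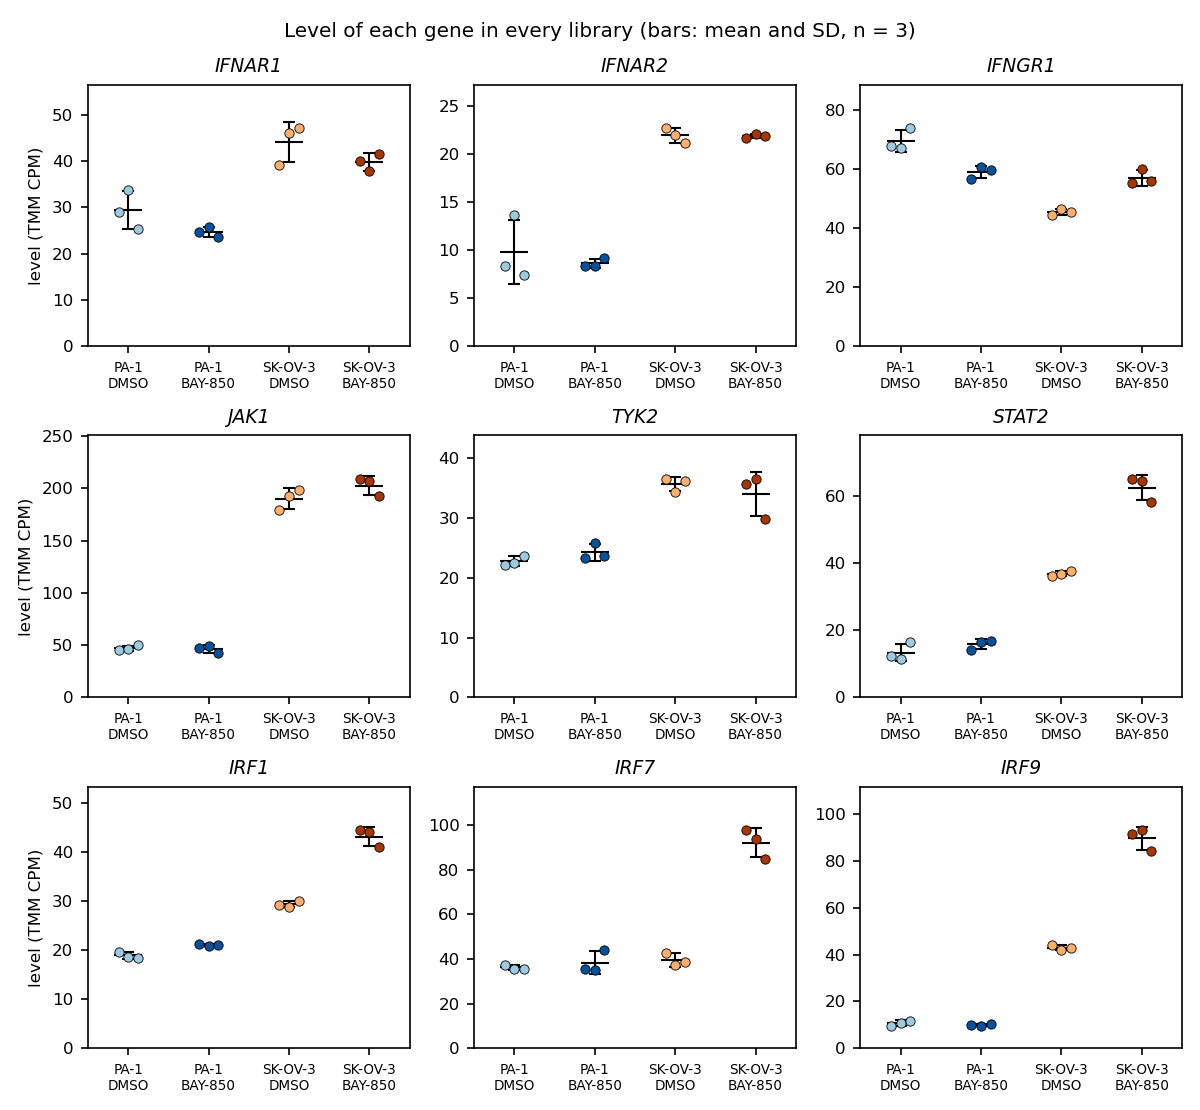
Level of each of the 9 genes (vertical axis, TMM CPM, from 0) in all 12 libraries, with 1 point a library and bars for the mean and SD of 3. In SK-OV-3 the BAY-850 points of STAT2, IRF1, IRF7 and IRF9 lie above all DMSO points, while IFNGR1 is lower with BAY-850 in PA-1 and higher in SK-OV-3.

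The promoters of IRF1 and IRF9 are shown because both genes rose in SK-OV-3 and hold a gamma-activated site near their RefSeq start. STAT2 is shown beside them as a gene that rose without either motif in the same window. IFNGR1 (not shown) also rose in SK-OV-3 and held neither motif in any of its windows, and IRF7, which rose too, had no matched window. The sequences are from RefSeq on GRCh38.p14 and run 5′ to 3′ on the gene's strand from 250 bases before the start to 50 bases after it. They lie at chr5:132490724-132491023 (minus strand) for IRF1, chr14:24161015-24161314 (plus strand) for IRF9 and chr12:56360058-56360357 (minus strand) for STAT2. Capitals mark the gamma-activated site.
IRF1: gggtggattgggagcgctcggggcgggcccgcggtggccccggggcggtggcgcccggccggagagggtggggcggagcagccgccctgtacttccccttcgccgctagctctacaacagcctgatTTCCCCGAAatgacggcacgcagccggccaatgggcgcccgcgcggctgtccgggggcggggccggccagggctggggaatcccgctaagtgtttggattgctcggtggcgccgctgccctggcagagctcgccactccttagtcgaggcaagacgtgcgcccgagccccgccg
IRF9: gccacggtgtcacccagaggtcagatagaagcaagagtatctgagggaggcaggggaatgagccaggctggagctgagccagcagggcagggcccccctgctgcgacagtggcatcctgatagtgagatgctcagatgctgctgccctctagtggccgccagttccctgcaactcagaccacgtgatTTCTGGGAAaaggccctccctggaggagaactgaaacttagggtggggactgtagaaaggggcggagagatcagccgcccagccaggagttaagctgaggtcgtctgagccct
STAT2: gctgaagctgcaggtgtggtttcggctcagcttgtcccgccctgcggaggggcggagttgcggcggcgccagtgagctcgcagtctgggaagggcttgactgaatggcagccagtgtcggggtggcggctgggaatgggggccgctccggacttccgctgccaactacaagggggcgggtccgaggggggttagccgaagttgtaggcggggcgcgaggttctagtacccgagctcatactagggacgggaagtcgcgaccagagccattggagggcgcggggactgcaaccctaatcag

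Promoter windows were matched for 7 of the 9 genes, with 11 windows in all, since IFNAR1, IFNGR1 and JAK1 have several starts. IFNAR2 and IRF7 were not matched. The gamma-activated site was searched as TTCNNNGAA, which is its own reverse complement. It occurred in IRF1 from 124 to 116 bases before the start, as TTCCCCGAA, and in IRF9 from 63 to 55 bases before it, as TTCTGGGAA. The RefSeq starts of IRF1, STAT2 and IRF9 lie 25, 48 and 212 bases inside the GENCODE genes whose positions are given below, so that the site of IRF9 is inside the gene on that annotation. Of 35116 promoter windows of the same length, 7.66% held that motif. The core of the interferon-stimulated response element, searched as TTTCNNTTTC on both strands, was in 3.57% of all windows and in none of the 11. With no match of the core, no overlap between the motifs arose. With only the 250 bases before the start, IRF1 and IRF9 still held the site, beside 6.57% of all windows, and the response element core was in 3.02% of them. A match describes letters in a window and is not a measured binding site.

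The type I receptor chains did not pass the test in either line. IFNAR1, the chain that holds TYK2 (chr21:33324477-33359862, plus strand, GENCODE on GRCh38, as are the gene positions that follow), had a mean in PA-1 of 29.4 ± 4.13 CPM in controls and 24.7 ± 1.07 CPM in treated cells. Its means in SK-OV-3 were 44.1 ± 4.27 and 39.8 ± 1.86 CPM in the same order. The log2 difference was -0.25 (95% interval -0.45 to -0.05, adjusted p = 0.118) in PA-1 and -0.13 (-0.32 to 0.06, adjusted p = 0.316) in SK-OV-3. The libraries of the 2 treatments overlapped in both lines. Without PA-1 DMSO replicate 3 the PA-1 difference was -0.34, with an adjusted p of 0.0382.

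IFNAR2, the chain that binds interferon tightly and holds JAK1 (chr21:33229901-33265675, plus strand), had its widest spread under DMSO in PA-1. Its 3 DMSO libraries there read 8.39, 13.6 and 7.41 CPM, and its BAY-850 libraries 8.32, 8.36 and 9.16 CPM. Replicate 2 alone was high, and the log2 difference moved from -0.19 (adjusted p = 0.57) to 0.13 without it. In SK-OV-3 the means were 21.9 ± 0.80 and 21.8 ± 0.20 CPM, and the 95% interval of the log2 difference ran from -0.18 to 0.20. IFNAR2 shares 2038 exon bases with a readthrough gene on its strand and 1803 with an antisense RNA, and how the counting treated strand is not given in the sources used here. The antisense RNA, listed as IL10RB-AS1, had at most 71 counts in any library.

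IFNGR1, the ligand-binding chain of the interferon gamma receptor (chr6:137197484-137219449, minus strand), was the only one of the 9 genes that passed the test in both lines, and it moved in opposite directions. In PA-1 the DMSO libraries read 67.8, 67.2 and 73.9 CPM and the BAY-850 libraries 56.6, 60.7 and 59.7 CPM. All 3 treated libraries lay below all 3 controls, and the level fell by 0.24 on the log2 scale (SE 0.0628, adjusted p = 0.0358). In SK-OV-3 the DMSO libraries read 44.4, 46.3 and 45.3 CPM and the BAY-850 libraries 55.1, 60.0 and 55.9 CPM. There every treated library was above every control, and the level rose by 0.34 (SE 0.0645, adjusted p = 0.00326). The PA-1 call was lost with library size as the only scaling (adjusted p = 0.0809), with each library's trend on GC content removed (log2 difference -0.14, adjusted p = 0.257) and without any 1 of PA-1 DMSO replicates 1, 2 and 3 or BAY-850 replicates 1 and 2 (adjusted p from 0.0757 to 0.117), and it stood without BAY-850 replicate 3. The SK-OV-3 call stood in all 16 alternatives (adjusted p at most 0.0222).

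The kinases did not pass the test in either line. JAK1, which serves both receptors (chr1:64833229-64966504, minus strand), ranged from 42.2 to 49.8 CPM over the 6 PA-1 libraries and from 179.0 to 208.9 CPM over those of SK-OV-3. Its log2 difference was -0.02 (95% interval -0.18 to 0.13) in PA-1 and 0.11 (-0.01 to 0.22, adjusted p = 0.198) in SK-OV-3. With the GC trend removed the SK-OV-3 difference was 0.18, with an adjusted p of 0.0487. TYK2, the kinase of IFNAR1 (chr19:10350529-10380676, minus strand), ranged from 22.2 to 25.8 CPM in PA-1 and from 29.8 to 36.5 CPM in SK-OV-3, where its lowest value was in BAY-850 replicate 3. Its log2 difference was 0.09 (-0.08 to 0.26) in PA-1 and -0.06 (-0.25 to 0.13) in SK-OV-3, and it turned to -0.02 in PA-1 with the GC trend removed and to 0.02 in SK-OV-3 without that library. The intervals of both kinases lay within a log2 difference of 0.3 in either direction.

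STAT2, the part of ISGF3 that activates transcription (chr12:56341597-56360155, minus strand), rose in SK-OV-3. Its DMSO libraries read 36.0, 36.8 and 37.6 CPM and its BAY-850 libraries 64.9, 64.2 and 58.0 CPM. The groups were well apart, and the rise was 0.77 on the log2 scale (SE 0.0662, 1.71-fold, adjusted p = 1.38e-05). In PA-1 the DMSO libraries read 12.2, 11.4 and 16.3 CPM and the BAY-850 libraries 14.0, 16.5 and 16.7 CPM. DMSO replicate 3 lay among the treated libraries, and the log2 difference was 0.25 (95% interval -0.04 to 0.53, adjusted p = 0.283). Without that control library it was 0.42, with an adjusted p of 0.0483.

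IRF1, a transcription factor that acts early in the interferon gamma response (chr5:132481609-132490798, minus strand), also rose in SK-OV-3. It read 29.2, 28.9 and 30.1 CPM under DMSO and 44.5, 44.0 and 41.1 CPM with BAY-850. The rise was 0.57 (SE 0.0695, 1.48-fold, adjusted p = 0.000193). In PA-1 it read 19.7, 18.7 and 18.4 CPM under DMSO and 21.2, 20.9 and 21.2 CPM with BAY-850. These groups did not overlap either, but the difference of 0.16 did not pass the test (95% interval -0.01 to 0.33, adjusted p = 0.251). IRF1 shares 1716 exon bases with the antisense gene C5orf56, whose own level in PA-1 was 0.67 ± 0.16 CPM under DMSO and 0.75 ± 0.12 CPM with BAY-850. In SK-OV-3 C5orf56 was at 1.69 ± 0.057 CPM under DMSO and read 2.51, 2.46 and 0.93 CPM with BAY-850, so the groups overlapped. IRF1 also shares 469 exon bases with AC116366.3, a protein-coding gene on the opposite strand that is not a row of the table. The part of these overlaps in the IRF1 value was not tested.

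IRF7, the factor that amplifies type I interferon production (chr11:612553-615999, minus strand), gave the largest rise of the 9 genes in SK-OV-3. Its DMSO libraries read 42.8, 37.1 and 38.6 CPM and its BAY-850 libraries 97.8, 93.9 and 84.9 CPM. Every treated library was far above the controls, with a rise of 1.23 (SE 0.0746, 2.35-fold, adjusted p = 9.19e-07). In PA-1 it read 37.4, 35.8 and 35.5 CPM under DMSO and 35.7, 35.2 and 44.2 CPM with BAY-850. Replicate 3 of the treated libraries, which also had the highest share of ribosomal RNA, stood above the rest, and the log2 difference of 0.09 (-0.10 to 0.27, adjusted p = 0.594) was -0.03 without it and -0.07 with the GC trend removed.

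IRF9, the DNA-binding part of ISGF3 (chr14:24161053-24166565, plus strand), had the smallest p of the 9 genes in SK-OV-3. It read 44.0, 42.0 and 42.8 CPM under DMSO and 91.8, 93.2 and 84.2 CPM with BAY-850. The rise was 1.08 (SE 0.0613, 2.11-fold, adjusted p = 6.26e-07). In PA-1 it read 9.37, 10.9 and 11.8 CPM under DMSO and 9.92, 9.71 and 10.2 CPM with BAY-850. The treated libraries lay inside the range of the controls, with a log2 difference of -0.11 (-0.36 to 0.15, adjusted p = 0.643). IRF9 shares 1838 exon bases with a readthrough gene on its own strand, which is not a row of the table. Its neighbours are RNF31, a ubiquitin ligase gene whose mean in SK-OV-3 was 42.7 ± 2.91 CPM under DMSO and 55.3 ± 6.54 CPM with BAY-850, and PSME2, a proteasome activator subunit gene, with 45.1 ± 3.39 and 55.9 ± 3.14 CPM. Their part in the IRF9 value was not tested.

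The size of the rise in SK-OV-3 was graded by gene. The 95% intervals of IRF7 (1.07 to 1.40) and IRF9 (0.94 to 1.21) overlapped, and the lower bound of IRF9 lay above the upper bound of STAT2 (0.63 to 0.92). STAT2 and IRF1 (0.42 to 0.72) overlapped, as did IRF1 and IFNGR1 (0.20 to 0.49). IRF7, IRF9, STAT2 and IRF1 rose in all 16 alternatives, with log2 ranges of 1.19 to 1.30, 1.06 to 1.11, 0.75 to 0.83 and 0.55 to 0.61. SK-OV-3 BAY-850 replicate 3, the library with few genes detected, was the lowest treated library for 6 of the 9 genes, and leaving it out ended none of the 5 calls.

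**Figure D2:**
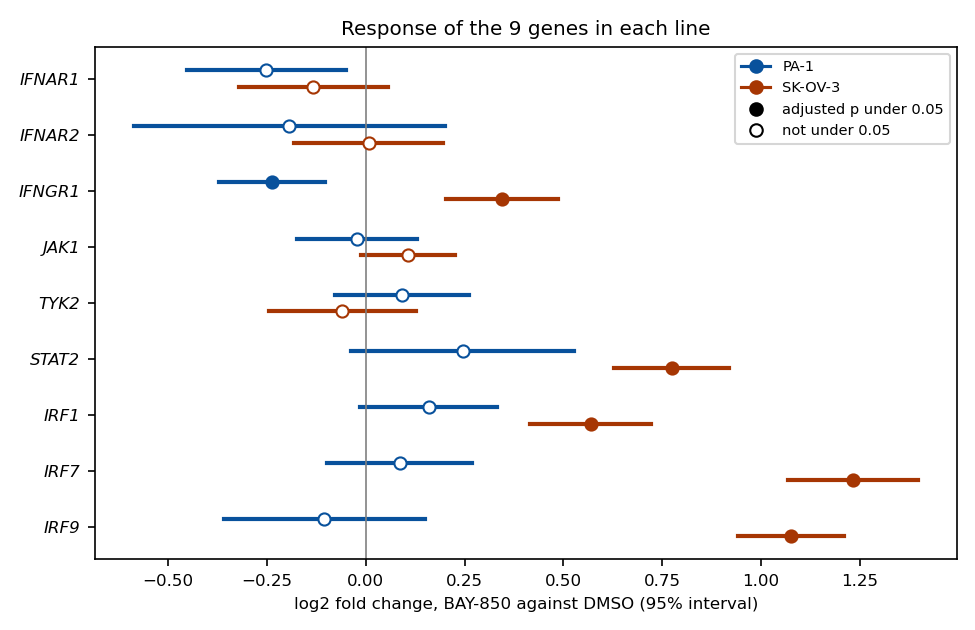
Log2 fold change of BAY-850 against DMSO (horizontal axis) for each gene in PA-1 (blue) and SK-OV-3 (brown), with 95% intervals; filled points had an adjusted p under 0.05. The SK-OV-3 intervals of STAT2, IRF1, IRF7, IRF9 and IFNGR1 lie above 0, and that of IFNGR1 in PA-1 lies below 0.

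The difference between the lines was tested itself, as the response in SK-OV-3 minus that in PA-1. It was above 0 for 5 of the 9 genes and below 0 for none that passed, beside 6.7% and 7.77% of all genes tested. On the log2 scale it was 1.17 (SE 0.115) for IRF9, 1.14 (SE 0.126) for IRF7, 0.57 (SE 0.0859) for IFNGR1, 0.52 (SE 0.158) for STAT2 and 0.40 (SE 0.0974) for IRF1. The adjusted p was 8.94e-06, 2.73e-05, 0.000457, 0.039 and 0.0126 in that order. For STAT2 the call was lost in 8 of the 12 fits that left out 1 library (PA-1 DMSO replicate 3, PA-1 BAY-850 replicates 1 and 2, SK-OV-3 DMSO replicates 1, 2 and 3, and SK-OV-3 BAY-850 replicates 1 and 2), with adjusted p from 0.0602 to 0.106. The other 4 genes did not pass. Their 95% intervals were -0.19 to 0.40 for IFNAR1, -0.31 to 0.69 for IFNAR2, -0.08 to 0.32 for JAK1 and -0.42 to 0.09 for TYK2. The interval of IFNAR2 was the widest and left room for a difference of up to 0.69.

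Under DMSO the lines already differed in most of these genes. SK-OV-3 was higher than PA-1 in 7 of the 9 and lower in IFNGR1, beside 40.1% of all genes higher and 40.2% lower, so that a call in this comparison was common. JAK1 (log2 difference 2.01, SE 0.0638, adjusted p = 1.31e-11) and IRF9 (2.00, SE 0.0944, adjusted p = 6.14e-10) differed most, followed by STAT2 (1.47) and IFNAR2 (1.15). TYK2, IRF1 and IFNAR1 were higher by 0.64, 0.63 and 0.58. IFNGR1 was lower by a log2 difference of -0.62 (adjusted p = 1.15e-06). IRF7 did not pass (0.12, 95% interval -0.04 to 0.29, adjusted p = 0.145), although with the GC trend removed it did (0.24, adjusted p = 0.00304). Both comparisons use the same DMSO libraries, so the starting levels and the responses are not independent.

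Levels can be set between genes only per length, and are given here as CPM per kilobase of annotated exon. In PA-1 under DMSO the order ran from IFNGR1 (21.2 ± 1.13) and IRF7 (13.8 ± 0.39) through JAK1 (7.44), IFNAR1 (4.66) and TYK2 (3.37) to IRF9 (2.82), IRF1 (2.43), STAT2 (2.18) and IFNAR2 (2.13). The ranges of the last 4 overlapped from each gene to the next. In SK-OV-3 under DMSO, JAK1 (30.1 ± 1.58) led, then IRF7 (15.04 ± 1.13) and IFNGR1 (13.8 ± 0.30), whose ranges overlapped, then IRF9 (11.3 ± 0.27). IFNAR1 (6.99), STAT2 (6.02), TYK2 (5.27), IFNAR2 (4.75) and IRF1 (3.77) followed without overlap. With BAY-850 in SK-OV-3, IRF7 (35.1 ± 2.52) and JAK1 (32.1 ± 1.42) overlapped at the top, and IRF9 (23.6 ± 1.28) lay above IFNGR1 (17.4 ± 0.80). The annotated exons of IRF1 cover 7799 bases, the most of the 9, which lowers its value on this scale.

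**Figure D3:**
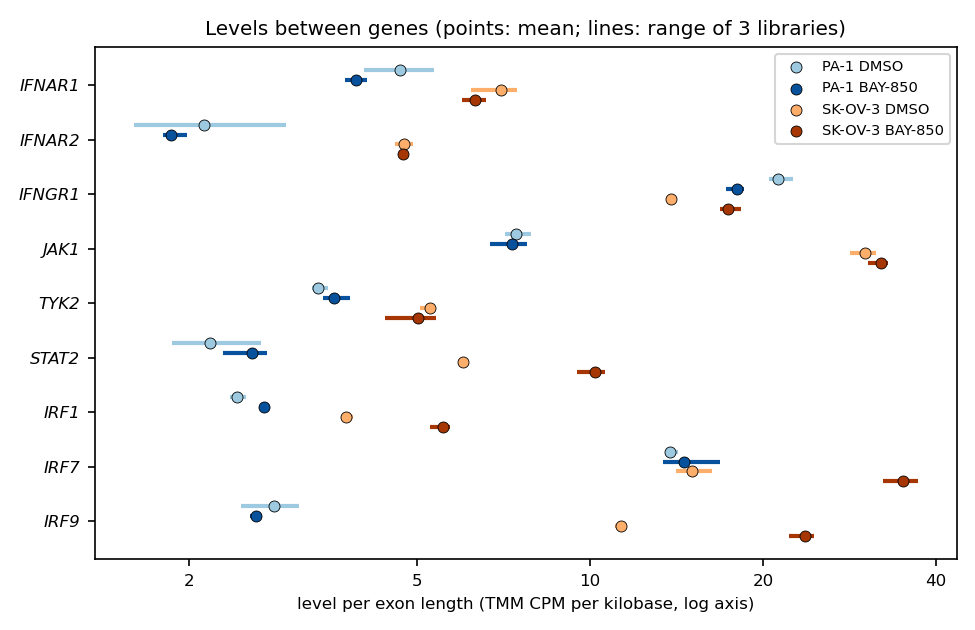
Level per exon length (horizontal log axis, TMM CPM per kilobase) of each gene in the 4 groups, with points for the mean and lines for the range of 3 libraries. IRF7 and IRF9 in SK-OV-3 with BAY-850 (35.1 and 23.6) stand to the right of their other 3 groups, and JAK1 separates the lines.

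Further receptor chains, kinases, STATs and IRFs were counted as a list of 15 other core genes. All 15 were tested in SK-OV-3, with a median log2 fold change of 0.03. There 3 rose and none fell, beside 10.8% and 9.56% of all genes tested. Those that rose were STAT3 (0.20, adjusted p = 0.0202), STAT6 (0.22, adjusted p = 0.00833) and IRF2, a relative of IRF1 that can oppose it (0.39, adjusted p = 0.0272). The count was 0 without DMSO replicate 2, 1 without BAY-850 replicate 1 and 5 without BAY-850 replicate 3. IFNGR2, the partner chain of IFNGR1, had a log2 difference of 0.23 (adjusted p = 0.0985), and IRF3, the constitutive relative of IRF7, read 63.2 ± 2.31 and 62.6 ± 0.84 CPM. In PA-1, 11 of the 15 were tested, none rose (4 were higher at an unadjusted p under 0.05), and the median was 0.12. By DESeq2 1 rose, and with no filter on low counts 2 of 14 tested rose. Over all genes tested in PA-1, 4.65% rose and 2.48% fell. JAK2, the kinase of IFNGR2, fell there from 14.2 ± 0.28 to 10.0 ± 1.63 CPM, by 0.50 on the log2 scale (SE 0.123, adjusted p = 0.0246). That call was lost with library size only, with the GC trend removed, with all 12 libraries in one fit and without any 1 of DMSO replicates 1, 2 and 3 or BAY-850 replicates 2 and 3 (adjusted p from 0.0517 to 0.105).

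Among 20 negative regulators of the pathway, 5 rose in SK-OV-3 and none fell, beside 10.8% and 9.56% of all genes tested. The median was 0.09. In PA-1 none passed, beside 4.65% higher and 2.48% lower over all genes tested. The median there was -0.02, with 1 regulator lower at an unadjusted p under 0.05 and 0 called by DESeq2. In SK-OV-3 SOCS1, which blocks JAK kinases, went from 1.46 ± 0.32 to 2.89 ± 0.43 CPM (log2 fold change 1.00, SE 0.311, adjusted p = 0.0426). USP18, which acts at IFNAR2 to dampen the type I response, rose by 0.74 (SE 0.135, adjusted p = 0.00276), and CISH, a SOCS relative, by 0.71 (SE 0.0977, adjusted p = 0.000446). SOCS1 lost its call with the replicate number as a block (adjusted p = 0.0903), with the GC trend removed (adjusted p = 0.0513) and without any 1 of the 3 DMSO libraries or of BAY-850 replicates 1 and 2 (adjusted p from 0.0574 to 0.155), while USP18 and CISH kept theirs without any 1 library. The count fell to 3 without DMSO replicate 1 or 2 or BAY-850 replicate 1 or 2. Without DMSO replicate 1, and also without BAY-850 replicate 1, 1 regulator fell.

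Known interferon target genes were counted beside the pathway. In SK-OV-3, 42 of 44 tested rose and none fell, beside 10.8% and 9.56% of all genes tested. The number that rose was 36 to 42 with 1 library left out and 39 to 42 in the other alternatives, and none fell in any. The median log2 fold change was 0.73, with the largest for IFITM1 (2.05), OAS1 (1.72) and IFI6 (1.58). In PA-1, 34 were tested, 1 rose and 5 fell, beside 4.65% and 2.48% of all genes tested. PML rose (0.33). Among those that fell were IFIT2 (-0.59), OASL (-0.55) and IFIT3 (-0.48), of which IFIT2 alone kept its call without any 1 library. The 5 became 3 without DMSO replicate 1 or BAY-850 replicate 1, 1 without DMSO replicate 2 and 2 without BAY-850 replicate 2. PML lost its call with library size only (adjusted p = 0.101), with the GC trend removed (adjusted p = 0.103) and without DMSO replicate 1, DMSO replicate 2 or BAY-850 replicate 2 (adjusted p = 0.0776, 0.119 and 0.0911). Of 24 interferon genes sought, 21 were rows of the table, 12 of these were at 0 in every library, and the highest count in any library was 137. IFNL1, a type III interferon, read 0.63, 0.45 and 0.47 CPM under DMSO and 0.89, 1.73 and 1.36 CPM with BAY-850 in SK-OV-3, and did not pass the test (adjusted p = 0.0824). All lists were chosen with earlier results of these data known.

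**Figure D4:**
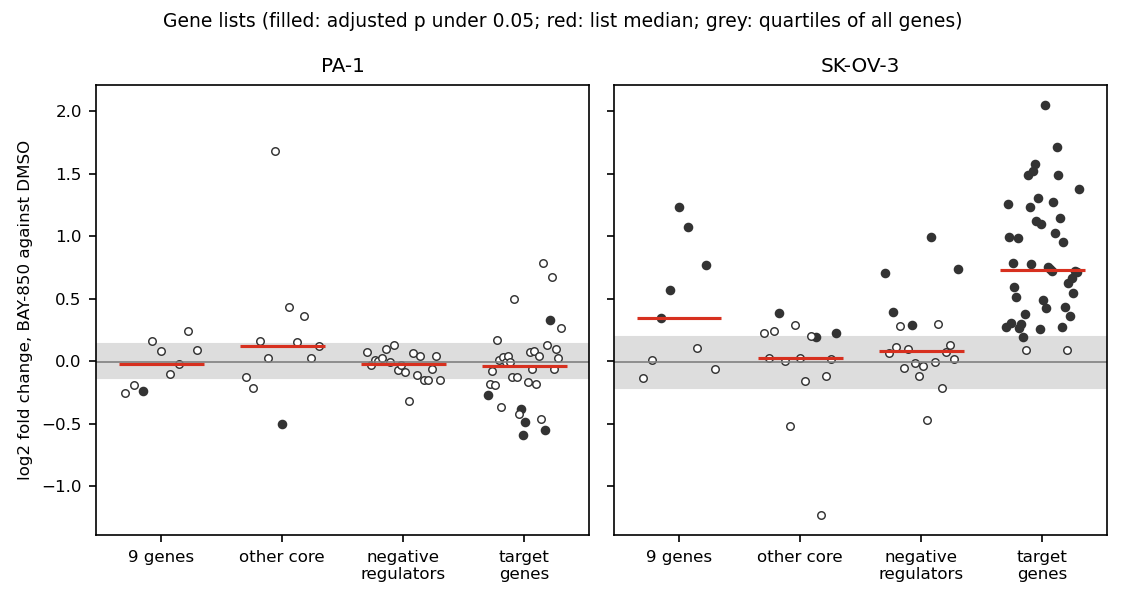
Log2 fold change of BAY-850 against DMSO (vertical axis) of the 9 genes, the other core genes, the negative regulators and the target genes in PA-1 and SK-OV-3, with 1 point a gene, filled where the adjusted p was under 0.05. Red lines are list medians (0.34, 0.03, 0.09 and 0.73 in SK-OV-3; -0.02, 0.12, -0.02 and -0.03 in PA-1), and the grey band spans the quartiles of all genes tested.

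The genes whose levels followed IFNGR1 and IRF9 most closely were found by Pearson's r of log2 CPM over the 12 libraries, after each value was centred on the mean of its line, among 11859 genes. The libraries share their treatment groups, so r largely follows the group means and carries no test. For IFNGR1 they were the zinc-finger gene ZNF416 (r = 0.951), CREB5 (0.937), a transcription factor of the CREB family, and NFE2L2 (0.937), which encodes the antioxidant factor NRF2. NFE2L2 went from 132.8 ± 4.14 to 111.7 ± 2.66 CPM in PA-1 and from 141.3 ± 3.40 to 172.0 ± 10.8 CPM in SK-OV-3. For IRF9 they were SMOC1 (r = 0.987), a matrix protein gene, UGCG (0.986), which makes glucosylceramide, and CSF1 (0.983), the macrophage growth factor. CSF1 read 14.2 ± 0.38 and 13.4 ± 0.67 CPM in PA-1 and 51.7 ± 1.03 and 162.2 ± 11.3 CPM in SK-OV-3.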

How the data were processed

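RNA was measured in 12 libraries. Per the labels, messenger RNA was selected with oligo-dT beads and made into strand-specific libraries, whereas the series' design text names ribosomal RNA depletion. The authors deposited expected counts per gene, made with RSEM 1.2.15 and Bowtie2 2.1.0 on hg38 according to the submitters' processing notes. The annotation and strand setting of the counting are not given in the sources used here. Expected counts are estimates that split shared reads. Of all values in a library, those at 0 included, 8.94 to 12.4% were not whole, and they were rounded. All 12 columns matched a sample description.

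Each comparison was fitted on the whole table with edgeR 4.0.16 (R 4.3.3): filterByExpr, TMM factors, quasi-likelihood F test, Benjamini-Hochberg adjustment over all genes tested, threshold 0.05. The treatment comparisons used the 6 libraries of a line, the line comparison the 6 DMSO libraries, and the difference of responses all 12. The fit was tested on simulated data. Alternatives were RLE size factors, library size only, totals without ribosomal RNA genes, other count filters (none, or 10 counts in every library), DESeq2 1.42.0, limma-voom 3.58.1, a replicate block, removal of each library's trend on GC content (known for 93.4% of genes), 1 fit of all libraries, and each library left out in turn. No pair of replicates agreed within sampling noise.

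Gene positions, exon lengths and GC content came from GENCODE on GRCh38, and promoters from RefSeq. The list of other core genes is given without some genes that are not reported here. The members and lists were chosen with earlier results of these data known. All 9 members are named, any tested gene of the core list may be, and of the other lists up to 3 genes per line and direction with the largest change among those called with a mean of at least 1 CPM. Neighbouring genes, markers and IFNL1 were named outside that rule, and the genes most alike were the 3 with the highest r among genes with a mean of at least 1 CPM in all 4 groups (prior count 2).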

Additional observations from a re-analysis of the deposited data

Results flagged for a closer look

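The response to BAY-850 differed between the lines for 5 of the 9 genes, by edgeR's quasi-likelihood test of the response in SK-OV-3 minus that in PA-1. Over all genes tested, this difference was called above 0 for 6.7% and below 0 for 7.77%. The difference was 1.17 for IRF9, 1.14 for IRF7, 0.57 for IFNGR1, 0.52 for STAT2 and 0.40 for IRF1, all on the log2 scale with 3 libraries in each group. For IRF9 and IRF7 it came with a rise in SK-OV-3 and no call in PA-1, and for IFNGR1 with calls in opposite directions, of which the PA-1 call was lost in 7 of 16 alternatives. The difference for IFNGR1 itself kept its call in all 21 alternatives, and so did those for IRF9, IRF7 and IRF1, while that for STAT2 kept its call in 13 of 21.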

How the results depend on the processing

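Of 621 values of single genes under the alternatives, 589 kept their direction and their side of the threshold, 15 lost a call, 4 gained one and 13 changed sign. In SK-OV-3, 5 of the 9 genes were called in the alternatives and 6 with the GC trend removed. In PA-1 the count of 1 became 0 with library size only and 0 with the GC trend removed, and ranged from 0 to 2 when 1 library was left out. With the GC trend removed the PA-1 values of TYK2 and IRF7 were -0.019 and -0.072. The SK-OV-3 value of IFNAR2 was -0.0019 with totals without ribosomal RNA genes and -0.0060 with all 12 libraries in one fit. With 1 library left out, signs changed for IFNAR2 (-0.36 to 0.13), JAK1 (-0.065 to 0.038) and IRF7 (-0.030 to 0.15) in PA-1, for IFNAR2 (-0.019 to 0.038) and TYK2 (-0.11 to 0.018) in SK-OV-3, and for the line difference of IFNAR1 (-0.0055 to 0.21) and IFNAR2 (-0.13 to 0.36). The cause of these changes was not tested. Over all genes, 1085 were called in PA-1, against 466 with library size only, 542 with the GC trend removed, 683 in one fit of all libraries, and 489, 340 and 344 without DMSO replicate 1, DMSO replicate 2 or BAY-850 replicate 2. SK-OV-3 had 3130, against 1781 and 1983 without DMSO replicate 2 or 3. Higher and lower calls numbered 707 and 378 in PA-1, but 547 and 514 with totals without ribosomal RNA genes and 235 and 231 with library size only. They numbered 1662 and 1468 in SK-OV-3, but 2026 and 1058 with the GC trend removed, and 1128 and 1307 for the line difference, but 1062 and 773 with library size only and 1524 and 905 with the GC trend removed.

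Same-numbered libraries did not deviate together (correlations from -0.028 to 0.0042, and 1 of 6 matched its own number best). This gave no sign that the numbers pair samples, but with 3 libraries a group it could miss a weak pairing. With the replicate block, 1, 5, 5 and 8 of the 9 genes were called in PA-1, in SK-OV-3, between the responses and between the lines, as without it. All genes called with it were 624 higher and 307 lower in PA-1 and 1449 higher and 1267 lower in SK-OV-3. Between the responses they were 896 higher and 1061 lower of 16830 tested. Between the lines they were 6397 higher and 6433 lower of 16070 tested. The precision that 3 libraries a group gave is shown by the 95% intervals.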
